A study of Hypomesus transpacificus with 70 samples.

Results

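The gill transcripts described here are those from the study's list of salinity-responsive probes whose level stood above the 2 ppt handling control in fish moved to 0 ppt and below it in fish moved to 18 ppt. Members were taken from the deposited log2 values: the difference from 2 ppt, averaged over 6, 24 and 48 h, had to be at least 0.2 at 0 ppt and at most -0.4 at 18 ppt on the log2 scale. Of 697 listed probes, 71 met both limits, and 20 of these, on 8 genes, were left out by a list of excluded symbols, which left 51 probes on 34 assembled transcripts of 29 genes. The exclusion of 1 of these genes, with 4 probes, rests on matching it under another name, and by symbol alone there would be 55 probes of 30 genes. Membership also rests on single fish: the rule kept 44 genes without replicate 1 of 18 ppt at 48 h and 18 without replicate 5 of that group. The array of replicate 5 was the dimmest of all exposed fish, with a median signal of 15.4. Its median member difference from the 2 ppt mean of 48 h, at -1.64, was the lowest of its group. The list itself was drawn up by the authors on these fish for an effect of salinity or of its interaction with time, so the salinity differences below are given as a description, with no test. At the 0 ppt limit, the 5 probes just inside had 0 ppt differences of cldna 0.21, prnprs3 0.24, atp1a1a.1 0.24, capn5a 0.25 and cart1 0.26, and the 5 just outside had capn5a 0.20, cart1 0.18, cyp2k16 0.17, isotig22643 0.17 and atp1a1a.1 0.16, that of capn5a being under the limit before rounding. At the 18 ppt limit, the 5 probes just inside had 18 ppt differences of ARG1 -0.41, asb16 -0.42, asns -0.43, MSRA -0.45 and asb16 -0.46, and the 5 just outside had hsp90b1 -0.39, zc3h12a -0.39, papss2b -0.38, zgc:123297 -0.34 and hspa14 -0.33.

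Delta smelt (Hypomesus transpacificus) is a small estuarine fish, and the study exposed cultured prespawning adults to a range of salinities. All fish had been held at 2 ppt, and salinity was then ramped over 6 h and kept at its target, with times counted from the start of the ramp. Salinities carry the rounded names of the sample titles. Per the paper, the water called 0 ppt and 2 ppt was slightly saltier than these names. Each array was hybridized with the labeled gill RNA of 1 fish. Groups comprised 4 fish per time at 0, 6, 12 and 18 ppt, with 3 at 12 ppt and 24 h, 6 fish per time in the handling control that stayed at 2 ppt, and 5 fish taken at 2 ppt before the experiment, 70 in all. Fish of 1 salinity and time shared a container, apart from additional containers for the handling control, so container and group cannot be told apart, and p-values measure the spread between these fish only. The gill is a bulk tissue, in which fewer cells of a type and less RNA per cell cannot be told apart.

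Gill ionocytes are rich in mitochondria and carry Na+/K+-ATPase, the pump that drives ion uptake in dilute water and ion secretion in sea water. Tight junctions built of claudins set how leaky the gill epithelium is to ions and water between cells. A change of salinity is met in teleosts by exchanging pump isoforms, channels and junction proteins, alongside responses in energy supply, protein synthesis and immune regulation.

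The 51 member probes are 60-base oligonucleotides, and they are not independent readings. They hold 47 distinct sequences. Of 17 transcripts with both of their probes among the members, 9 had probes sharing a stretch of at least 50 bases, 3 shared 20 to 49 bases and 5 shared fewer than 12. The member probes of the 8 genes with the widest span between 0 and 18 ppt, among those with a gene name and a probe past the filter on dim signals, are printed 5′ to 3′, because these genes are followed fish by fish. Capitals mark the stretch that both probes of a transcript share; a sequence with no capitals shares no such stretch or is the only member probe of its transcript.
atp1a1a.4 probe 1: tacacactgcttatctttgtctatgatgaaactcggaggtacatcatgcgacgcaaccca
atp1a1a.4 probe 2: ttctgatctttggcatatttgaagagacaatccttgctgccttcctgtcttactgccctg
slc26a6l probe 1: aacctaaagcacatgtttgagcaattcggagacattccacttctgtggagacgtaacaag
slc26a6l probe 2: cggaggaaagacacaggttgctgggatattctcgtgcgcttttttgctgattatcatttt
COQ10A probe 1: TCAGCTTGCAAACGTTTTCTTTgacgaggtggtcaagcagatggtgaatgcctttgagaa
COQ10A probe 2: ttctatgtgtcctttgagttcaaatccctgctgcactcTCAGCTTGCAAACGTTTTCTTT
cldn5a probe 1: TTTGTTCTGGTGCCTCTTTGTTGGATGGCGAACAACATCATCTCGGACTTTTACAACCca
cldn5a probe 2: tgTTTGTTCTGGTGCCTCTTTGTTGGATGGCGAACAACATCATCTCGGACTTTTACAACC
aqp3b transcript 1 probe 1: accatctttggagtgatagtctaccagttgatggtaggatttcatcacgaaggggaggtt
aqp3b transcript 1 probe 2: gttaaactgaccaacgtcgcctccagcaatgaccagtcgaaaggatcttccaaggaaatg
aqp3b transcript 2 probe 1: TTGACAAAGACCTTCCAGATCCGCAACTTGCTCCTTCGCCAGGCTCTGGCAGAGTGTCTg
aqp3b transcript 2 probe 2: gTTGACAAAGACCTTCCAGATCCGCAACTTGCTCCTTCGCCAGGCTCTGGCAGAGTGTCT
hcls1: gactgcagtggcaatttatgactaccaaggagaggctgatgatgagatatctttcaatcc
asns: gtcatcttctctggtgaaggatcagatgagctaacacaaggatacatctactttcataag
tgm8: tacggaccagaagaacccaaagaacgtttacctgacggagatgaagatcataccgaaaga
The probes of atp1a1a.4 and of slc26a6l read separate stretches of their transcripts, whereas the cldn5a pair is offset by a few bases and is close to 1 reading made at separate spots. The 4 aqp3b probes came from a pair of assembled transcripts. Probes of different transcripts shared no stretch longer than 6 bases, while the transcripts themselves were not compared. The aqp3b differences were thus met at separate probe sequences, although the levels below rest on the probes of transcript 1 alone, which passed the filter. COQ10A levels likewise rest on probe 2. The reverse held for capn5a, whose 7 member probes on 4 transcripts had 4 distinct sequences, and for asb16, where the same 60-mer was printed under a pair of transcript names. That asb16 60-mer had a median signal of 105 at the spot that passed the filter below and of 97.5 at the spot that did not. Member probes had a median GC content of 45%, as did the other 646 listed probes.

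Levels are log2 of the quantile-normalized processed signal, averaged over the member probes of a gene within each fish, and have meaning only within a gene. A probe passed the filter on dim signals if it reached 100 in 50% or more of the arrays, as did 40 of the 51 member probes and 26 of the 29 genes. ebi3, ARG1 and MSRA had no probe past this filter, and their values come from a fit without it. In the fitted levels some members fell short of the limits that the rule set on the deposited values. The 0 ppt difference was 0.197 for ppp1r3cb and 0.181 for prnprs3. The 18 ppt difference was -0.344 for cox7a3, -0.347 for asns, -0.358 for cers2a and -0.373 for asb16. Array medians of the processed signal ranged from 12.9 to 131, the share of probes well above background ran between 62% and 90.8% per array, and precision is limited by how few fish each group held. Median array signals were 58.6, 59.8, 71.5, 48.8 and 54.4 at 0, 2, 6, 12 and 18 ppt. Within groups, the deviations of the 26 genes from their group means correlated with array brightness between -0.29 for atp1a1a.1 and 0.65 for cycsb (Pearson's r over 70 fish, which share the arrays, given as a description). With brightness as a covariate, all 26 genes lay above 2 ppt at 0 ppt and below it at 18 ppt. The rule had chosen these directions on the same fish, so their being kept is a description. The part of brightness in the differences was not tested.

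Most members did not decline step by step with salinity. All 29 genes had a mean below 2 ppt at 6 ppt, with a median difference of -0.51, and 22 of the 29 stood lower at 6 ppt than at 12 ppt. At 12 ppt the median difference was -0.11, and 16 genes lay below 2 ppt and 13 above it, where 51.6% and 48.4% of all genes and probes did. At 18 ppt the median was -0.61 and at 0 ppt 0.31, which the rule set. The order 0, 2, 6, 12, 18 ppt from high to low was found in 6 genes, namely atp1a1a.1, atp1b1b, cldn5a, cldna, prom2 and slc26a6l. In all of these genes but cldna, the 6 and 12 ppt differences lay closer together than their SE, so that step was not resolved. The deposited values gave this order in 5 genes, with cycsb and without cldn5a and prom2. Among all 14405 genes and probes with every estimate, 54.5% lay below 2 ppt at 6 ppt, 51.5% lay lower at 6 than at 12 ppt and 1.22% followed that order. Among the 3229 of them that, like the members, stood above 2 ppt at 0 ppt and below it at 18 ppt, which was 22.4% of the total, 84.3% lay below 2 ppt at 6 ppt, 76.7% lay lower at 6 than at 12 ppt, 50% lay above 2 ppt at 12 ppt and 5.45% followed the order. The name graded therefore fits few of the members, and they are called below by their genes.

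**Figure D1:**
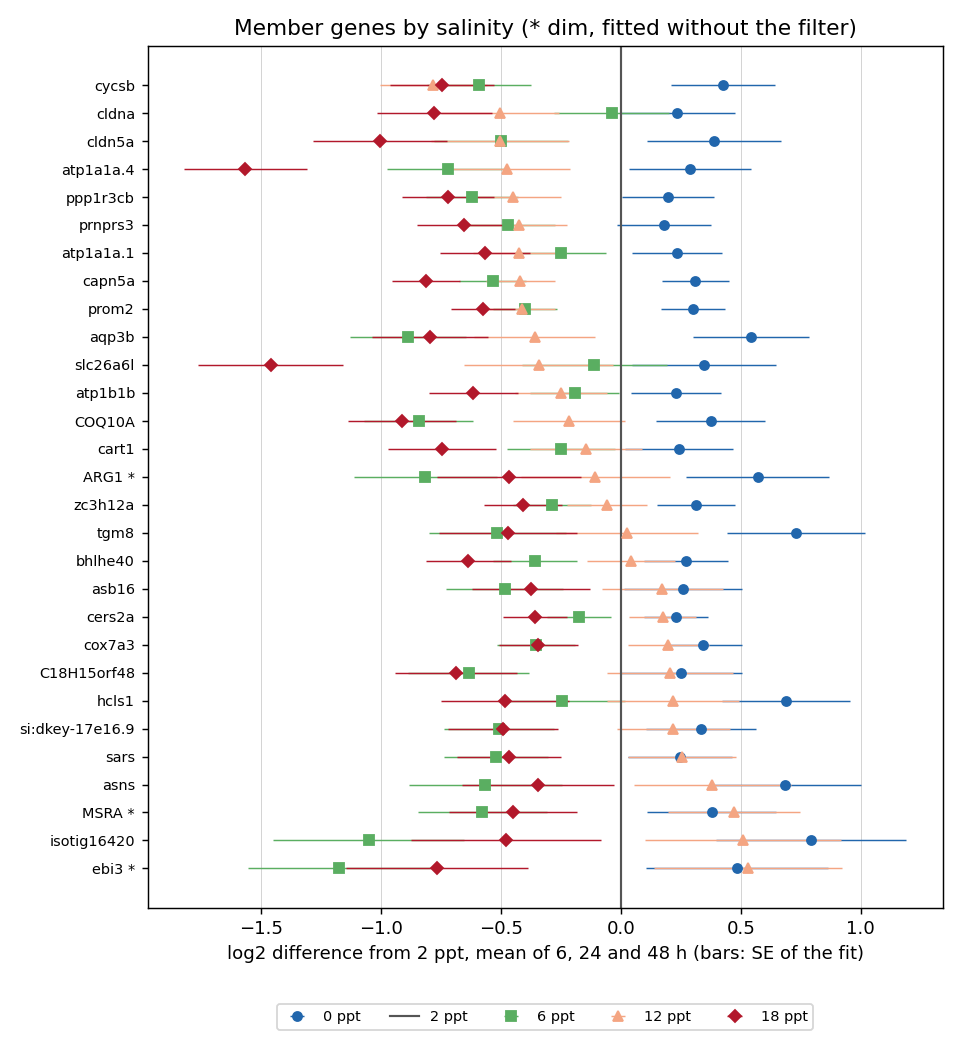
Log2 difference from the 2 ppt handling control (vertical line) for the 29 member genes at 0, 6, 12 and 18 ppt, averaged over 6, 24 and 48 h, with bars for the SE of the fit and an asterisk for genes fitted without the filter. Genes run from the lowest to the highest value at 12 ppt; at 6 ppt all 29 points lie left of the line, and at 12 ppt 16 lie left and 13 right of it.

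At 12 ppt the members took different sides of the control. The ion and water transport and junction genes among the members lay below 2 ppt at 12 ppt in 8 of 8 cases. Over all genes and probes, 51.6% did. Also below it were the members cycsb, COQ10A, capn5a, ppp1r3cb, prnprs3, cart1, ARG1 and zc3h12a. Genes of the ion and water transport list outside the rule lay on both sides, such as slc12a2 at 0.39 and KCNJ16 at -0.88. The members above 2 ppt at 12 ppt were the amino acid and tRNA genes asns and sars, the unnamed transcript isotig16420, ebi3, MSRA, hcls1, C18H15orf48, cox7a3, cers2a, si:dkey-17e16.9, asb16, bhlhe40 and tgm8. In tgm8 and bhlhe40 the differences of 0.03 ± 0.30 and 0.04 ± 0.18 (SE) were smaller than their errors. The same held above 2 ppt for hcls1, C18H15orf48, asb16 and si:dkey-17e16.9, and below it for ARG1, zc3h12a, cart1 and COQ10A. The side that these genes took at 12 ppt was thus not resolved. The lists were compiled with earlier results of these data known, and the members were selected on salinity, so no test is attached to this division.

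Members of the ion transport group were led by atp1a1a.4, an isoform of the catalytic alpha subunit of Na+/K+-ATPase. Its levels were 13.95 to 15.34 (median 14.78) in 0 ppt fish, 13.03 to 15.61 (median 14.54) in 2 ppt fish, 12.69 to 14.58 (median 13.77) in 6 ppt fish, 12.33 to 14.99 (median 14.17) in 12 ppt fish and 9.79 to 14.17 (median 13.05) in 18 ppt fish. The 0 and 18 ppt ranges overlapped narrowly, and all 12 fish at 18 ppt lay below the 2 ppt mean of their time. Differences from 2 ppt were 0.29 ± 0.26, -0.72 ± 0.26, -0.47 ± 0.26 and -1.57 ± 0.26 at 0, 6, 12 and 18 ppt (SE of the fit). The 18 ppt difference deepened with time, with -0.61, -1.21 and -2.87 at 6, 24 and 48 h. At 48 h the 4 fish at 18 ppt had 9.79, 10.54, 12.53 and 13.69, against a range of 14.06 to 14.77 (median 14.58) in the 6 fish at 2 ppt, so that all 4 lay below the control range but were themselves spread over a wide interval. Leaving out each of these 4 fish in turn gave differences at 48 h between -3.55 and -2.25.

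slc26a6l, a member of the SLC26 family of anion exchangers, was likewise lowest at 18 ppt and 48 h. Its levels were 9.74 to 12.14 (median 11.70) in 0 ppt fish, 9.74 to 12.80 (median 11.11) in 2 ppt fish, 9.73 to 11.98 (median 11.07) in 6 ppt fish, 9.12 to 11.89 (median 10.82) in 12 ppt fish and 6.03 to 11.60 (median 10.18) in 18 ppt fish. The medians at 2, 6 and 12 ppt lay close together, and the low values were those of 18 ppt. Relative to 2 ppt, the differences were 0.35 ± 0.30, -0.11 ± 0.30, -0.34 ± 0.31 and -1.46 ± 0.30 at 0, 6, 12 and 18 ppt (SE), and at 18 ppt they were -0.74, -0.36 and -3.28 at 6, 24 and 48 h. The 4 fish at 18 ppt and 48 h had 6.03, 6.62, 7.79 and 9.82, against 9.74 to 11.37 (median 11.03) in the 6 fish at 2 ppt. Only the highest of the 4 reached the lower end of the control range. The fish with the lowest atp1a1a.4 was also the one with the lowest slc26a6l. That fish, replicate 1, had the highest COQ10A, aqp3b, hcls1, asns and tgm8 of the 4, and 20 of the 29 member genes lay below the 2 ppt mean of 48 h in it, against 28 in each of the other 3 fish. Its array had a median signal of 54.5, and those of replicates 5, 6 and 7 had 15.4, 104 and 40.1. The array of replicate 1 was the only one of the 4 scanned on day 2 and at a photomultiplier setting of 580 in place of 610. The part of scanning in these values was not tested.

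The other pump subunits differed less. atp1a1a.1, a second alpha isoform, differed from 2 ppt by 0.23 ± 0.19, -0.25 ± 0.19, -0.42 ± 0.19 and -0.57 ± 0.19 at 0, 6, 12 and 18 ppt (SE), and atp1b1b, the beta subunit that brings the pump to the membrane, by 0.23 ± 0.19, -0.19 ± 0.19, -0.25 ± 0.19 and -0.61 ± 0.19 at 0, 6, 12 and 18 ppt. At 48 h and 18 ppt the differences were -0.93 and -1.38, and at 48 h and 12 ppt -0.97 and -0.71. The 48 h means of atp1a1a.1 were 7.95 (SD 0.32) at 12 ppt and 7.99 (SD 1.35) at 18 ppt, so which was lower was not resolved. At 6 h and 6 ppt, atp1a1a.4 stood -1.02 from 2 ppt, while atp1a1a.1 and atp1b1b stood 0.12 and 0.22. One further probe of atp1a1a.1 fell outside the rule, with 0.16 at 0 ppt, -0.45 at 12 ppt and -0.93 at 18 ppt in the deposited values.

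aqp3b encodes aquaporin 3, a channel for water and glycerol. Its levels were 7.89 to 10.26 (median 9.79) in 0 ppt fish, 7.41 to 10.74 (median 9.33) in 2 ppt fish, 6.61 to 9.39 (median 8.06) in 6 ppt fish, 6.76 to 9.81 (median 8.82) in 12 ppt fish and 7.31 to 9.41 (median 8.33) in 18 ppt fish. The fish at 6 ppt were as low as those at 18 ppt, and 11 of 12 fish in either group lay below the 2 ppt mean of their time. Against 2 ppt it differed by 0.54 ± 0.24, -0.89 ± 0.24, -0.36 ± 0.25 and -0.80 ± 0.24 at 0, 6, 12 and 18 ppt (SE). The 6 ppt difference was largest at 24 h, at -1.60, and that of 0 ppt at 6 h, at 1.06.

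Of the junction genes, cldn5a (claudin 5a) had levels of 7.99 to 10.07 (median 8.81) in 0 ppt fish, 5.55 to 9.76 (median 8.76) in 2 ppt fish, 6.73 to 8.93 (median 8.17) in 6 ppt fish, 6.92 to 9.33 (median 7.93) in 12 ppt fish and 6.32 to 8.69 (median 7.25) in 18 ppt fish. All 12 fish at 18 ppt lay below the 2 ppt mean of their time, although their range overlapped those of the other salinities. Differences from 2 ppt were 0.39 ± 0.28, -0.50 ± 0.28, -0.50 ± 0.29 and -1.0 ± 0.28 at 0, 6, 12 and 18 ppt (SE). At 6 ppt the difference lay mainly at the first sampling, with -1.50, 0.09 and -0.09 at 6, 24 and 48 h. At 12 ppt it was -1.17, 0.29 and -0.63 at 6, 24 and 48 h. cldna, annotated as claudin 30, followed salinity more evenly, with 0.23 ± 0.24, -0.04 ± 0.24, -0.50 ± 0.25 and -0.78 ± 0.24 at 0, 6, 12 and 18 ppt. prom2, annotated as prominin-3 precursor, of a family of proteins of membrane protrusions, differed by 0.30 ± 0.13, -0.40 ± 0.13, -0.41 ± 0.14 and -0.57 ± 0.13 at 0, 6, 12 and 18 ppt, and at 48 h by -1.05 at 12 ppt and -1.03 at 18 ppt.

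The ion and water transport list held 26 genes with listed probes. Over the whole list, members included, 18 of 26 lay above 2 ppt at 0 ppt and 21 of 26 below it at 18 ppt, with median differences of 0.07 and -0.57. The rule had set both directions for the 8 members. No share over all genes and probes stands beside these counts, so they are a description. Genes of the list outside the rule included the opposite pattern. slc12a2, the Na-K-2Cl cotransporter of secreting ionocytes, differed by -0.52 at 0 ppt and 0.75 at 18 ppt, and kcnj1b, an inwardly rectifying potassium channel, by -0.90 and 0.69. KCNJ16, another such channel, differed by 0.03 at 0 ppt and -0.95 at 18 ppt.

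Markers of gill cell types within the list were set beside these values. Of 5 ionocyte markers, 3 were pump genes of the rule. The summed signals of the other 2, slc12a2 and rhcga, an ammonia channel, were 1268 to 4086 (median 2419) at 0 ppt, 1442 to 7324 (median 3609) at 2 ppt and 1604 to 5613 (median 3691) at 18 ppt. The 18 ppt range of this sum lay within that of 2 ppt. The sum pools opposite directions, since slc12a2 differed from 2 ppt by 0.75 at 18 ppt and rhcga by -0.21. The 4 surface epithelium markers outside the rule summed to 2421 to 4045 (median 3358) at 0 ppt, 2410 to 5021 (median 3694) at 2 ppt and 1218 to 3142 (median 2660) at 18 ppt. All 6 markers of that list, members included, had lower means at 18 ppt than at 2 ppt, and 2 of the 6 had higher means at 0 ppt. The 6 leukocyte markers outside the rule summed to 1898 to 7246 (median 3630) at 0 ppt, 1474 to 5526 (median 2009) at 2 ppt and 1440 to 5263 (median 2292) at 18 ppt. This sum also pools opposite directions. At 18 ppt irg1l and noxa1 differed from 2 ppt by 0.57 and 0.28. CXCR5, BX950862.1, gpr84 and pik3r5 differed there by -0.48, -0.31, -0.30 and -0.20. Of all 7 leukocyte markers, the member hcls1 included, 5 had lower means at 18 ppt and 6 had higher means at 0 ppt. The part of cell composition in the members' differences was not tested, and markers of erythrocytes and muscle had no named probe in the list.

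Mitochondrial genes gave 3 members. COQ10A, which binds coenzyme Q in the respiratory chain, had levels of 6.74 to 9.08 (median 7.31) in 0 ppt fish, 6.21 to 9.08 (median 7.11) in 2 ppt fish, 5.53 to 7.17 (median 6.23) in 6 ppt fish, 5.07 to 8.21 (median 7.11) in 12 ppt fish and 5.61 to 6.96 (median 6.17) in 18 ppt fish. All 12 fish at 18 ppt and 11 of 12 at 6 ppt lay below the 2 ppt mean of their time, whereas the 12 ppt fish were divided 6 below and 5 above. Mean differences from 2 ppt were 0.37 ± 0.23, -0.84 ± 0.23, -0.22 ± 0.23 and -0.91 ± 0.23 at 0, 6, 12 and 18 ppt (SE). cycsb, cytochrome c, was the sole member with its lowest mean at 12 ppt in the fit, with 0.43 ± 0.22, -0.59 ± 0.22, -0.78 ± 0.22 and -0.74 ± 0.22 at 0, 6, 12 and 18 ppt. In the deposited values its lowest difference was that of 18 ppt, at -0.783 against -0.770 at 12 ppt. The probes of another listed cytochrome c transcript did not meet the rule, with 18 ppt differences of -0.28 and -0.24 and 12 ppt differences of 0.11 and 0.07 in the deposited values. cox7a3, related to a subunit of cytochrome c oxidase, differed by 0.34 ± 0.16, -0.35 ± 0.16, 0.20 ± 0.17 and -0.34 ± 0.16 at 0, 6, 12 and 18 ppt. Of 17 genes in the mitochondrial list, 15 lay above 2 ppt at 0 ppt and 13 below it at 18 ppt, with medians of 0.27 and -0.16. These values include the 3 members, whose directions the rule had set. No share over all genes and probes stands beside them, so they are a description.

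asns encodes asparagine synthetase, and its levels were 5.05 to 9.18 (median 7.64) in 0 ppt fish, 4.93 to 8.91 (median 7.0) in 2 ppt fish, 4.34 to 8.69 (median 5.99) in 6 ppt fish, 3.52 to 8.91 (median 7.96) in 12 ppt fish and 5.51 to 8.79 (median 6.63) in 18 ppt fish. The salinity groups overlapped over most of their range. Differences from 2 ppt were 0.68 ± 0.32, -0.56 ± 0.32, 0.38 ± 0.33 and -0.35 ± 0.32 at 0, 6, 12 and 18 ppt (SE), and the probe of the same transcript outside the rule had a deposited 18 ppt difference of 0.08, so the low value at 18 ppt rested on 1 of its 2 probes. sars, seryl-tRNA synthetase, differed by 0.25 ± 0.22, -0.52 ± 0.22, 0.26 ± 0.22 and -0.47 ± 0.22 at 0, 6, 12 and 18 ppt, and ARG1, arginase 1, below the filter, by 0.57 ± 0.30, -0.81 ± 0.30, -0.11 ± 0.31 and -0.47 ± 0.30 at 0, 6, 12 and 18 ppt. Of the 12 genes in the list of tRNA charging and amino acid supply, 10 lay above 2 ppt at 0 ppt and 10 below it at 18 ppt, with medians of 0.27 and -0.15. The 3 members, whose directions the rule had set, are among them, so these values too are a description.

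tgm8, annotated as a transglutaminase, an enzyme that cross-links proteins, had levels of 7.14 to 10.24 (median 9.24) in 0 ppt fish, 6.70 to 10.33 (median 7.82) in 2 ppt fish, 6.44 to 9.51 (median 7.69) in 6 ppt fish, 6.53 to 9.74 (median 8.02) in 12 ppt fish and 6.84 to 9.55 (median 7.47) in 18 ppt fish. At 0 ppt, 10 of 12 fish lay above the 2 ppt mean of their time, but only 7 of 12 fish at 18 ppt lay below it. Against the handling control the differences were 0.73 ± 0.29, -0.51 ± 0.29, 0.03 ± 0.30 and -0.47 ± 0.29 at 0, 6, 12 and 18 ppt (SE), and those at 18 ppt were 0.49, -0.92 and -0.98 at 6, 24 and 48 h, of opposite sign at the first sampling. hcls1, an adaptor of blood cell lineages in mammals, had levels of 7.46 to 9.65 (median 8.81) in 0 ppt fish, 6.81 to 9.40 (median 8.23) in 2 ppt fish, 6.91 to 9.31 (median 7.79) in 6 ppt fish, 6.94 to 9.79 (median 8.67) in 12 ppt fish and 6.62 to 8.41 (median 7.75) in 18 ppt fish. Its differences from 2 ppt were 0.69 ± 0.27, -0.25 ± 0.27, 0.22 ± 0.27 and -0.48 ± 0.27 at 0, 6, 12 and 18 ppt, and the 0 ppt difference was widest at 24 h, at 1.30. All fish groups overlapped in both genes.

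Of the immune and signaling lists, the cytokine list gave 1 of its 16 genes as a member. The JAK-STAT and NF-kB list gave 2 of 18, and that of innate and antiviral effectors 0 of 19. Members made up 6.7% of the 433 listed genes not left out by symbol, and the excluded symbols themselves included immune and signaling genes. ebi3, a cytokine subunit related to cytokine receptors, had the lowest 6 ppt value of the members and the highest at 12 ppt, with 0.48 ± 0.38, -1.18 ± 0.38, 0.53 ± 0.39 and -0.77 ± 0.38 at 0, 6, 12 and 18 ppt from the fit without the filter. zc3h12a, a ribonuclease that degrades cytokine transcripts, differed by 0.31 ± 0.16, -0.29 ± 0.16, -0.06 ± 0.17 and -0.41 ± 0.16 at 0, 6, 12 and 18 ppt, and bhlhe40, a transcriptional repressor, by 0.27 ± 0.18, -0.36 ± 0.18, 0.04 ± 0.18 and -0.64 ± 0.18 at 0, 6, 12 and 18 ppt. At 18 ppt, members included, 5 of 16 genes in the cytokine list lay below 2 ppt. In the JAK-STAT and NF-kB list 9 of 18 did. At 0 ppt, 13 genes of each of these lists lay above 2 ppt. Of the 19 innate and antiviral effectors, 8 lay above 2 ppt at 0 ppt and 8 below it at 18 ppt. The rule had set both directions for the members. No share over all genes and probes stands beside these list counts, so they are a description. capn5a, a calcium-dependent protease, differed by 0.31 ± 0.14, -0.53 ± 0.14, -0.42 ± 0.15 and -0.81 ± 0.14 at 0, 6, 12 and 18 ppt, with an SE among the smallest of the members.

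The remaining 9 genes belonged to none of the function lists. ppp1r3cb, which targets protein phosphatase 1 to glycogen, differed from 2 ppt by 0.20 ± 0.19, -0.62 ± 0.19, -0.45 ± 0.20 and -0.72 ± 0.19 at 0, 6, 12 and 18 ppt (SE). prnprs3, a prion protein relative, and cart1, a neuropeptide precursor related to cocaine- and amphetamine-regulated transcript, differed at 18 ppt by -0.65 ± 0.20 and -0.75 ± 0.22. Those 3 genes stood below 2 ppt at 12 ppt. The other 6 stood above it: isotig16420, annotated as a hypothetical protein, differed by 0.79 ± 0.40, -1.05 ± 0.40, 0.51 ± 0.41 and -0.48 ± 0.40 at 0, 6, 12 and 18 ppt, and MSRA, which repairs oxidized methionine, by 0.38 ± 0.27, -0.58 ± 0.27, 0.47 ± 0.28 and -0.45 ± 0.27 at 0, 6, 12 and 18 ppt. cers2a, a ceramide synthase, si:dkey-17e16.9, annotated as an epidermis-type lipoxygenase, asb16, with a SOCS box, and C18H15orf48 had 18 ppt differences between -0.69 and -0.36.

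**Figure D2:**
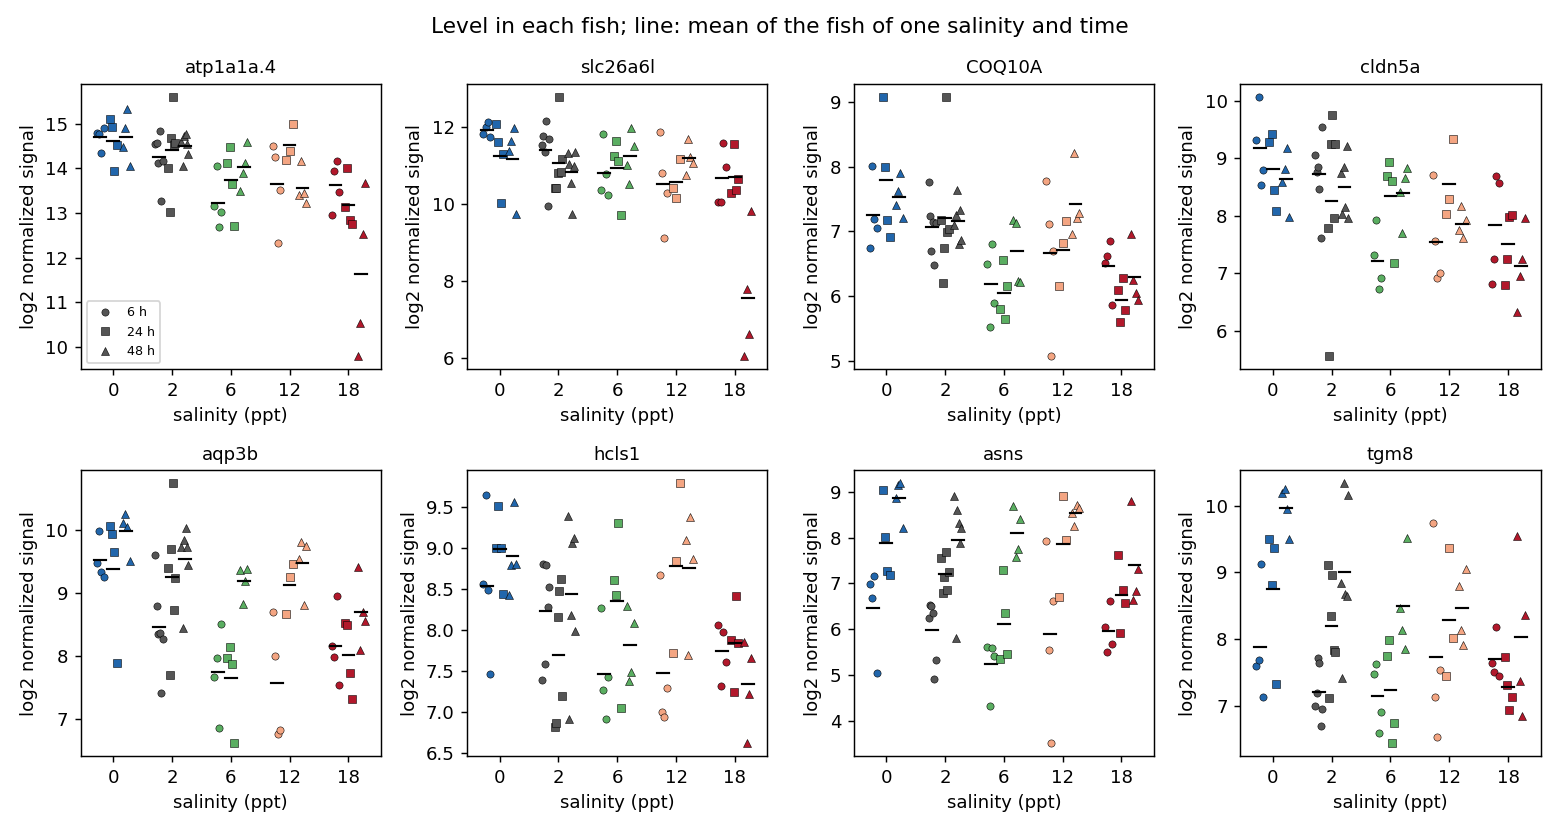
Log2 normalized signal of the 8 named genes with the widest span between 0 and 18 ppt in every exposed fish, by salinity (x axis, ppt) and time (circles 6 h, squares 24 h, triangles 48 h), with a line for the mean of each salinity and time. The 4 fish at 18 ppt and 48 h hold the lowest values of atp1a1a.4 (9.79) and slc26a6l (6.03).

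Across the 3 samplings, the median distance from the control grew at 18 ppt and shrank at 0 and 6 ppt. The 29 differences of 18 ppt had medians of -0.34, -0.48 and -0.90 at 6, 24 and 48 h, and 20 of the 29 genes had their lowest 18 ppt difference at 48 h. The rule used the mean of these 18 ppt differences, so a low value at 48 h itself favored membership. At 0 ppt the medians were 0.44, 0.39 and 0.31. At 12 ppt they were -0.25, 0.12 and -0.30, with 18 of 29 genes above 2 ppt at 24 h, a group of 3 fish, and 12 of 29 above it at 48 h. At 6 ppt the medians were -0.62, -0.52 and -0.40. No share over all genes and probes was computed for these counts by time, so they are a description.

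**Figure D3:**
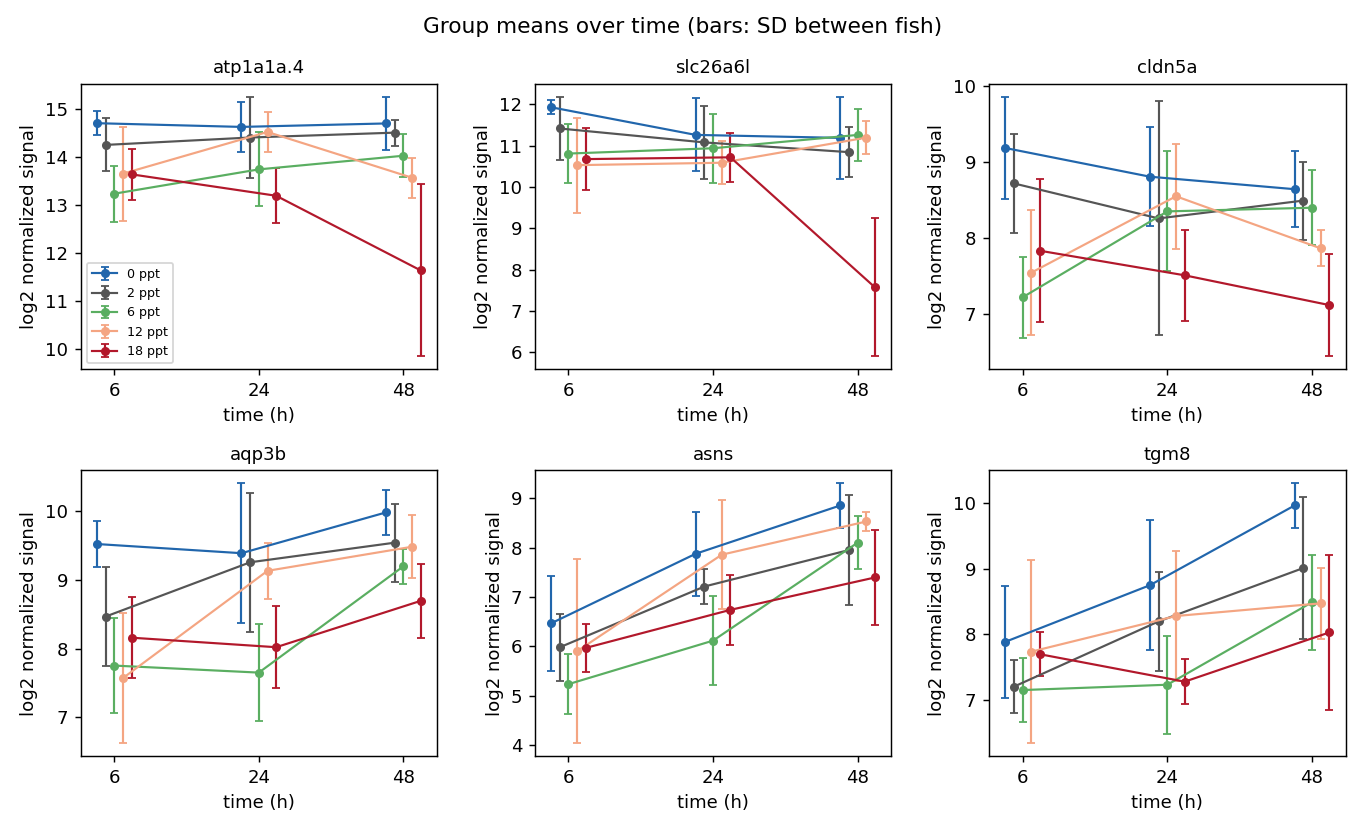
Mean log2 normalized signal of 6 member genes at 6, 24 and 48 h in each salinity, with bars for the SD between the fish of a group (3 to 6). atp1a1a.4 and slc26a6l are lowest at 18 ppt and 48 h, whereas asns lies higher at 48 h than at 6 h in all 5 salinities.

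Change with time was not used by the limits of the rule, although the authors' list admitted probes for an interaction of salinity with time. It was tested in a linear model in limma, with Benjamini-Hochberg adjustment over all genes and probes. At 48 h against 6 h, averaged over the 5 salinities, 14 of 26 testable members passed an adjusted p of 0.05, 11 higher and 3 lower. Over all 14406 genes and probes tested, 41.4% passed, 22.5% higher and 19% lower, so change with time was common on these arrays. The members that rose included 9 of the 11 testable genes above the control at 12 ppt. No matching share is given for all genes and probes above 2 ppt at 12 ppt. The 12 ppt fish enter both values, so this count is a description. asns rose by 2.25 ± 0.26 (SE, adjusted p = 6.29e-10), with levels of 5.80 to 9.18 (median 8.36) in the 22 fish at 48 h and 3.52 to 7.93 (median 5.87) in the 22 fish at 6 h. At 48 h, 21 of 22 fish lay above the 6 h mean of their salinity. isotig16420 rose by 1.75 ± 0.32 (adjusted p = 1.55e-05), si:dkey-17e16.9 by 1.44 ± 0.19 (adjusted p = 1.27e-08) and tgm8 by 1.26 ± 0.24 (adjusted p = 1.69e-05). C18H15orf48, aqp3b and sars rose by 1.13, 1.09 and 1.06, cox7a3 and asb16 by 0.66 and 0.60, and capn5a and cers2a by 0.31 and 0.27, with adjusted p-values from 2.30e-06 to 0.0398. The cers2a call was lost on leaving out any of 21 fish, 1 at a time, and that of capn5a on leaving out any of 4.

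All 3 members that fell were ion transport genes. atp1b1b changed by -0.69 ± 0.15 (adjusted p = 0.000221), with levels of 10.13 to 13.17 (median 12.56) at 48 h and 12.05 to 13.75 (median 12.86) at 6 h, and 19 of 22 fish at 48 h lay below the 6 h mean of their salinity. atp1a1a.1 changed by -0.54 ± 0.15 (adjusted p = 0.00386) and slc26a6l by -0.66 ± 0.25 (adjusted p = 0.0272). With the 18 ppt fish left out of the contrast, slc26a6l changed by -0.05 (limma, adjusted p = 0.896), against -3.11 within the 18 ppt fish, and the call was lost on leaving out any of 4 fish as well. atp1b1b and atp1a1a.1 still passed, at -0.54 and -0.45 (adjusted p = 0.00839 and 0.0275). That alternative was chosen after seeing the data, and it called 12 members. atp1a1a.4 did not pass (-0.21 ± 0.21, adjusted p = 0.436), with -2.0 at 18 ppt and 0.79 at 6 ppt, and cldn5a had 0.00 ± 0.23 (adjusted p = 0.992). The 3 genes below the filter had 1.48 ± 0.31 for ebi3, 1.37 ± 0.22 for MSRA and 1.09 ± 0.25 for ARG1 in the fit without it (adjusted p = 0.000215, 2.61e-06 and 0.000548).

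**Figure D4:**
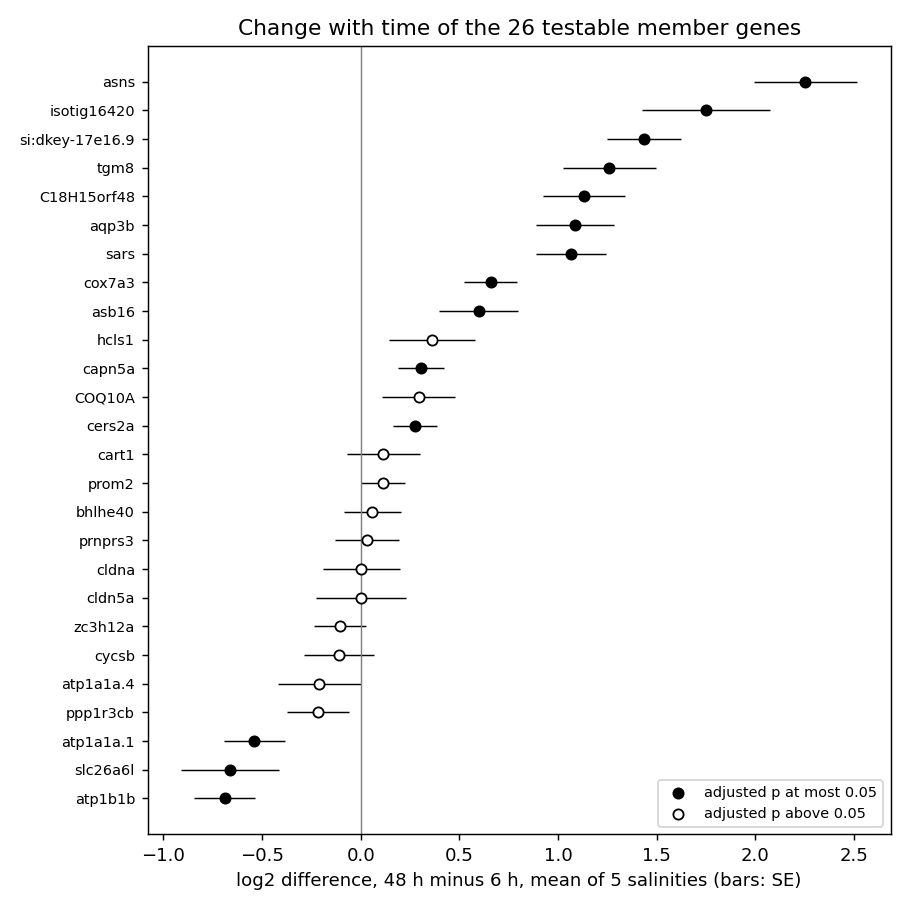
Log2 difference of 48 h minus 6 h, averaged over the 5 salinities, for the 26 testable member genes, with bars for the SE and filled points for an adjusted p of at most 0.05. 11 filled points lie right of 0 and 3, all ion transport genes, lie left of it.

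At 24 h against 6 h, 5 of 26 members rose and none fell, against 7.14% of all genes and probes, 4.82% higher and 2.32% lower. An unadjusted limma p under 0.05 was found in 9 members, against 3759 of all 14406 genes and probes. Without the filter 4 of 29 members passed, with no share over all given for that fit. asns rose by 1.25 ± 0.26 (limma, adjusted p = 0.00231), and isotig16420, si:dkey-17e16.9, sars and cox7a3 by 1.17, 0.70, 0.66 and 0.42. With slide as a fixed block, 0 members passed, and the cox7a3 call was lost on leaving out any of 25 fish. Without replicate 2 of 12 ppt at 24 h 2 members passed, and without replicate 2 of 6 ppt at 24 h 3 passed. At 48 h against 24 h, 6 of 26 passed, against 14.1% of all genes and probes, 8.91% higher and 5.19% lower. asns, tgm8, si:dkey-17e16.9, aqp3b and C18H15orf48 rose, by 1.01, 0.85, 0.73, 0.69 and 0.66, and atp1b1b fell by 0.49. Without the filter, 2 of 29 passed, again with no share over all given.

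Some of these genes also rose in fish that were only handled. In the handling control at 48 h against 6 h, 4 of 26 members rose and none fell, against 10.3% of all genes and probes, 6.47% higher and 3.82% lower. isotig16420 had 4.93 to 9.60 (median 9.03) in the 6 fish at 48 h and 4.76 to 6.93 (median 5.69) in the 6 fish at 6 h, a rise of 2.55 ± 0.61 (SE, limma adjusted p = 0.00448). asns had 5.80 to 8.91 (median 8.26) at 48 h and 4.93 to 6.53 (median 6.30) at 6 h, a rise of 1.97 ± 0.49 (limma adjusted p = 0.00602). The isotig16420 ranges overlapped, and those of asns did so through 1 low fish at 48 h, replicate A2. tgm8 rose by 1.81 ± 0.44 and si:dkey-17e16.9 by 1.18 ± 0.35 (limma adjusted p = 0.00517 and 0.023). Without replicate A2 at 48 h, 8 members passed, and with slide as a fixed block 0 passed. The 3 pump genes had 0.26 ± 0.40 for atp1a1a.4, 0.05 ± 0.29 for atp1a1a.1 and -0.04 ± 0.29 for atp1b1b, of which none passed.

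Handling from before the experiment to 6 h was tested in the 2 ppt fish. At 2 ppt and 6 h against the pre-experiment fish, 0 of 26 members passed in limma, against 0% of all 14410 genes and probes, and 3 members had an unadjusted p under 0.05, against 1622 genes and probes in all. All other settings tried called 0 members as well. Among the testable members, the largest difference with an unadjusted p under 0.05 was that of ppp1r3cb, at 0.88 ± 0.31 (adjusted p = 0.395). atp1a1a.4 had 13.26 to 14.83 (median 14.36) in the 6 fish at 6 h and 13.38 to 14.24 (median 13.54) in the 5 pre-experiment fish.

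Among fish of the same group, the members varied together to some extent. The deviations of the 26 genes from their group means had a median pairwise correlation of 0.29 (325 pairs, 70 fish), and 276 pairs were above 0. Pairs of a member with each other gene or probe had a median of 0.02, and 195931 of 373854 of them were above 0. The closest pairs were cldn5a with prnprs3 (0.80), atp1a1a.4 with cycsb (0.75), cox7a3 with sars (0.75) and atp1a1a.4 with slc26a6l (0.74), and the lowest was asb16 with atp1a1a.4 (-0.33). These values are a description of fish that share arrays and brightness, with no p.

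The 70 arrays lay on 18 slides. With slide as a fixed block, all 26 genes were below 2 ppt at 18 ppt, with a median of -0.61, and 21 of 26 were above it at 0 ppt, with a median of 0.23 in place of 0.31. Both directions had been chosen by the rule on the same fish, so these counts are a description. The 0 ppt differences of atp1a1a.4 and slc26a6l were then -0.0040 and -0.00098, so their higher level at 0 ppt was not separate from the slides. Within the arrays scanned at a photomultiplier setting of 580, 7 of 26 genes lay above 2 ppt at 18 ppt, among them asns at 0.47 and tgm8 at 0.31, while within those at 610 all 26 lay below it. At setting 580 the 18 ppt group of 48 h was 1 fish, replicate 1, which had the highest asns and tgm8 of that group.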

How the data were processed

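Gill RNA of 70 fish was labeled with Cy3 and hybridized to single-color Agilent arrays, 1 fish per array. Per the file headers, the authors deposited Feature Extraction output, in which the processed signal is an intensity that is background-subtracted and detrended within the array. The authors also deposited a table of log2 values for all arrays, from which the members were chosen. The members and gene lists were chosen with earlier results of these data known. Groups were taken from the sample titles.

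From the processed signal, 2036 outlier spots were left out, 14425 of 36818 probes, which reached 100 in 50% or more of the arrays, were kept, and the arrays were quantile normalized and taken to log2. Member probes past the filter were averaged per gene. Group means were fitted in limma 3.58.1 (R 4.3.3) over 14411 genes and probes, with Benjamini-Hochberg adjustment and a threshold of 0.05. The fit was tested on simulated data. Tests were limited to changes with time and to 2 ppt at 6 h against pre-experiment fish. Per-fish values are given for the 8 named genes past the filter with the widest span between 0 and 18 ppt in the deposited values, group differences for members in a function list, and time changes for members past the threshold. Differences of the other members were added to account for all of them. Alternatives covered background correction, scaling, the filter, slide, scan day, photomultiplier setting, a replicate block and leaving out each fish. Array brightness as a covariate, fits within a scan day or photomultiplier setting, and leaving 18 ppt out of the time contrast were chosen after seeing the data. No genome was used, so no coordinates are given.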

Additional observations from a re-analysis of the deposited data

Results flagged for a closer look

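Among the 8 leading genes, 120 groups of 4 to 6 fish were examined for a fish far from the others, and 7 held one, where chance gives about 1 in 20 groups. In slc26a6l, replicate B2 of 2 ppt at 24 h had 12.80 with the next fish at 11.17, and replicate C1 of 2 ppt at 6 h had 9.94 with the next at 11.35. Replicate B2 was also high in COQ10A, at 9.08 with the next fish at 7.17. Replicate A2 of 2 ppt at 48 h was low in aqp3b, at 8.44 with the next at 9.45, and in asns, at 5.80 with the next at 7.88. In hcls1, pre-experiment replicate A3 had 9.34 with the next at 7.69. In asns, replicate 2 of 6 ppt at 6 h had 4.34 with the next at 5.41.

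In 5 cases every fish of one group lay on one side of the mean it was set against, and every fish of another group on the opposite side of its own. These differences were not tested. They were picked from the 8 leading genes over many pairs of groups. Neither the number of pairs examined nor a share over all genes and probes stands beside this count, so it is a description. The change of slc26a6l from 6 h to 48 h was 0.67 at 12 ppt and -0.57 at 2 ppt, and -3.11 at 18 ppt and 0.67 at 12 ppt. That of cldn5a was 1.18 at 6 ppt and -0.54 at 0 ppt, and 0.32 at 12 ppt and -0.54 at 0 ppt. The difference of tgm8 between 18 and 2 ppt was -0.92 at 24 h and 0.49 at 6 h.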

How the results depend on the processing

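The count of members past the threshold at 48 h against 6 h was 14, and it was 8 within the arrays scanned at a photomultiplier setting of 610 and 12 to 14 on leaving out each fish. At 24 h against 6 h it was 5, with 0 under slide as a fixed block, 1 with array brightness as a covariate, 2 within setting 610 and 2 to 7 on leaving out each fish. At 48 h against 24 h it was 6, with 2 without the filter, 3 within scan day 1, 0 within setting 610 and 4 to 8 on leaving out each fish. In the handling control at 48 h against 6 h it was 4, with 0 under slide as a fixed block, 9 with brightness as a covariate, 0 within setting 580, 0 within setting 610 and 3 to 8 on leaving out each fish. With a replicate block the 4 counts were 14, 5, 6 and 5. Same-numbered fish of different groups had a median correlation of 0.014, against -0.012 for other numbers, and 13 of 70 fish matched their own number best, so the numbers did not pair the fish. The rule kept 51 probes, 32 from normexp-corrected signals, of which 28 were shared, and 37 to 69 on leaving out each fish. In genes, the rule kept 29, 19 from normexp-corrected signals, 44 without replicate 1 of 18 ppt at 48 h and 18 without replicate 5 of that group, and 14 genes had a probe kept whichever of the 42 fish was left out. At 0 ppt, atp1a1a.4 was -0.0040 under slide as a fixed block, and slc26a6l was -0.00098 there and -0.11 within setting 610. At 18 ppt, asns was 0.47 and tgm8 0.31 within setting 580, where replicate 1 was the only 18 ppt fish of 48 h. The cause of these changes was not tested. Fits within setting 580 could not give 24 h contrasts over all salinities, since no 12 ppt array at 24 h was scanned there. Groups of 3 to 6 fish and dim probes, of which 11 of 51 member probes missed the filter, limit the precision.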
